A study of Arabidopsis thaliana with 12 samples.

Results

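Small RNAs of dcl234 floral buds were compared with those of Col-0 floral buds, using the 2 sRNA-Seq libraries of each genotype, 4 of the 12 samples of the series and 4 of its 6 sRNA-Seq libraries. These 4 libraries were taken because their labels name the genotype and the tissue, and every family or transposon listed for at least 1 library was kept, with 0 where a library did not list it. The study tested small RNA spike-ins for normalization in Arabidopsis thaliana, and also profiled Col-0 leaves, whose 2 libraries entered the statistical model only to help estimate the spread. Col-0 is the wild-type accession. The dcl234 plants carried dcl2-1, dcl3-1 and dcl4-2t, mutant alleles of the genes of 3 of the 4 Arabidopsis DICER-LIKE enzymes, and DCL1 was not among the mutated genes. Unopened floral buds came from plants grown with 16 h light and 8 h dark. The Col-0 buds were taken from the same 4 to 6 week old plants as the leaves, and the dcl234 buds from plants kept in the same conditions. Each replicate was an independent pool of tissue from separate plants, so that values are means over many buds, and in such bulk samples fewer cells that make a small RNA cannot be told apart from less small RNA per cell.

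DICER-LIKE enzymes cut double-stranded or hairpin RNA into small RNAs of set lengths. DCL1 releases most plant miRNAs from hairpin precursors as a duplex of a guide strand and a passenger strand, written 5p and 3p after the arm of the hairpin they come from. DCL4 makes the phased trans-acting siRNAs (tasiRNAs) from TAS transcripts that a miRNA has cut, as well as a few young miRNAs with long, nearly perfect hairpins, DCL3 makes the longer siRNAs that direct DNA methylation of transposons, and DCL2 makes siRNAs that are slightly longer than those of DCL4. A family that keeps its level in dcl234 buds is therefore one that can be made without DCL2, DCL3 and DCL4.

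All 275 miRNA families listed in at least 1 of the 6 sRNA-Seq libraries matched the name of a mature miRNA in the RefSeq annotation of TAIR10.1. The sequences below are those on which the comparison turned most, read from the RefSeq genome, 5′ to 3′, with the seed (bases 2 to 8) in capitals. The first set holds the 3 annotated products of MIR829, a hairpin at which 1 product fell and another did not, and the 2 miR845 sequences with which the fallen product shares bases.
miR829-3p.1: aGCUCUGAuaccaaaugauggaau
miR829-3p.2: cAAAUUAAagcuucaagguag
miR829-5p: aCUUUGAAgcuuugauuugaa
miR845a: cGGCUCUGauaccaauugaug
miR845b: uCGCUCUGauaccaaauugaug
The annotated miR829-3p.1 has 24 nt and lies at chr1:11834094-11834117 on the minus strand, and miR829-3p.2, of 21 nt, lies directly beside it at chr1:11834073-11834093 on the same arm, with no other annotated gene at either place. The 21-nt miR829-5p lies at chr1:11834153-11834173. From its base 2 on, miR829-3p.1 shares an unbroken run of 15 bases with miR845b and of 13 bases with miR845a, and the next longest run it shares with any other annotated mature miRNA has 9 bases.

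The second set holds the other products that fell in dcl234 buds.
miR840-5p: aCACUGAAggaccuaaacuaac
miR840-3p: uUGUUUAGgucccuuaguuuc
miR839: uACCAACCuuucaucguuccc
miR447a-3p: uUGGGGACgagauguuuuguug
miR447c-3p: uUGGGGACgacaucuuuuguug
miR8173: aUGUGCUGauucgagguggga
miR8165: aAUGGAGGcaagugugaagga
miR8167a: aGAUGUGGagaucguggggaug
miR5659: cGAUGAAGgucuuuggaacggua
miR166a-5p: gGACUGUUgucuggcucgagg
miR165a-5p: gGAAUGUUgucuggaucgagg
miR166e-5p: gGAAUGUUgucuggcacgagg
Both products of MIR840 lie on the minus strand of chromosome 2, at chr2:771492-771513 and chr2:771385-771405, inside an annotated exon of AT2G02750 on the same strand. The miR839 product lies at chr1:25279138-25279158 in an exon of AT1G08943, on the same strand. The miR447 family sums 3 loci with 2 sequences that share a seed, and miR8167 sums 6 loci with 1 sequence. The passenger strands miR165a-5p and miR166e-5p share a seed. The annotated miR166a-5p (chr2:19176128-19176148) and miR166b-5p (chr3:22922212-22922232) have the same sequence and carried the same values in every library, so they are 1 measurement listed 2 times.

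The third set holds the 2 strands of MIR158a, which behaved differently from each other, and the guide strand of miR166, whose passenger strands are above.
miR158a-3p: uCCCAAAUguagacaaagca
miR158a-5p: cUUUGUCUacaauuuuggaaa
miR166a-3p: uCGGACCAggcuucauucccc
The miR158 family of the tables is the 3p strand, at chr3:3366349-3366368 on the minus strand, together with the near-identical product of MIR158b, and miR158a-5p lies at chr3:3366391-3366411. The miR165/166 family sums the guide strands of 9 loci.

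Levels are given as deposited in reads per 1000000 reads (RPM), over all reads that match the genome or a spike-in. The step between low values gave 13243396 and 13755078 genome-matching reads for the Col-0 bud libraries and 10164548 and 8590559 for those of dcl234, so that 1 read was worth between 0.0727 and 0.116 RPM. In mRNA-Seq of the same groups, also with 2 libraries each, DCL3 stood at 3.85 and 4.30 TPM, a level scaled to transcript length and to the library, in Col-0 buds and at 0.40 and 0.37 in dcl234 buds, and fell (log2 difference -1.87 ± 0.32 SE on log2(TPM + 1), limma adjusted p = 0.00623), in a comparison of 19913 genes in which 0.678% were called lower and 1.63% higher. DCL2 had 2.07 and 3.26 TPM in Col-0 and 1.04 and 1.60 in dcl234 buds, and DCL4 had 3.20 and 4.51 against 3.12 and 2.87 TPM, neither called (adjusted p = 0.239 and 0.503). An allele need not lower the level of its transcript, so DCL2 and DCL4 do not check these labels. DCL1 had 2.13 and 3.01 TPM in Col-0 and 3.42 and 2.90 TPM in dcl234 buds, and the groups overlapped. All 7 floral identity genes looked at (AP1, AP3, PI, AG, SEP1, SEP2 and SEP3) were expressed, summing to 356 and 494 TPM in Col-0 and to 686 and 900 TPM in dcl234 buds, and 4 photosynthesis genes (RBCS1A, LHCB1.1, LHCB2.1 and LHCA1) summed to 8121 and 8983 against 14184 and 15674 TPM. Each of these 11 genes, and the meiosis gene DMC1 and the tapetum gene AMS, had a higher mean in dcl234 buds, by 1.39- to 2.83-fold. limma called 0 of the 13 after adjustment and 7 at an unadjusted p under 0.05, and the part of such a shift in the small RNA differences was not tested.

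The classes of small RNA moved in different directions. Summed over all families, miRNAs stood at 46689 and 48918 RPM in the Col-0 libraries and at 92194 and 98955 RPM in the dcl234 libraries, a ratio of 2.00. tasiRNAs stood at 8195 and 10346 RPM in Col-0 and at 161 and 152 RPM in dcl234 buds, 59.2-fold lower. The table of siRNAs at transposons named siR_21 summed to 904450 and 1016060 RPM in Col-0 and to 81864 and 80126 RPM in dcl234 buds, 11.9-fold lower, and the table named siR_24 summed to 253574 and 282056 RPM against 220073 and 197695 RPM, 1.28-fold lower. A read is counted at every transposon it overlaps, so that the sums of these tables count some reads repeatedly. In all 4 classes the 2 groups did not overlap, and with 2 libraries against 2 the exact two-sided permutation test cannot give a p under 0.33. RPM is a share of a library's reads, so that the loss of 1 class raises the RPM of the others by construction. Each library had 5.70 and 4.73 miRNA reads for each tasiRNA read in Col-0 and 572 and 650 in dcl234 buds, a ratio that does not depend on the other classes.

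**Figure D1:**
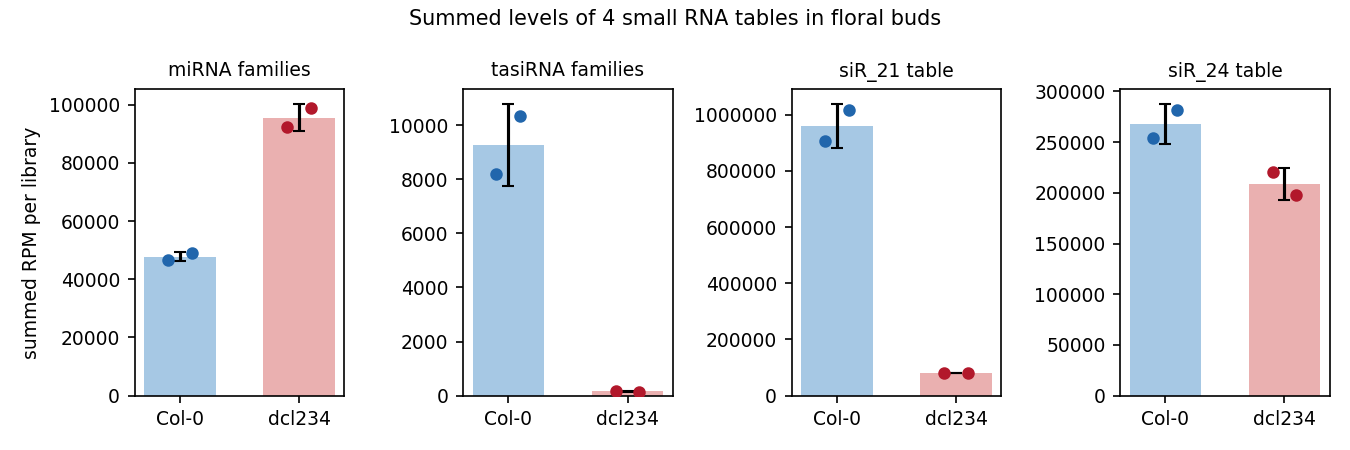
Summed RPM of each small RNA table in Col-0 (blue) and dcl234 (red) floral buds, on linear axes that start at 0. Points are libraries, bars are means and error bars are SD (n = 2); miRNA sums were 2.00 times as high in dcl234 buds, and the tasiRNA and siR_21 sums were 59.2-fold and 11.9-fold lower.

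Most tested miRNA families were not called lower in RPM. Of the 275 families, 152 averaged 1 RPM or more across the bud libraries and were tested. In dcl234 buds 75 families (49.3%) rose, 13 (8.55%) fell and 64 were not called. A call needed a limma adjusted p under 0.05 and at least 2-fold on the log2(RPM + 1) scale. Of the 13, miR829-3p.1, miR8173, miR840-3p, miR5659 and miR8165 averaged under 1 RPM in dcl234 buds. They passed the filter only through their Col-0 values, so that their mean could only be lower in dcl234 buds. The 2 groups did not overlap in 135 of the 152 families (88.8%), with dcl234 above Col-0 in 118 and below it in 17. The median log2 difference was 1.00 on the log2(RPM + 1) scale, which understates changes of low families and is not directly comparable with the ratio of the sums. As shares of the miRNA total the median was 0.30, so that the typical tested family rose more than the sum of all families. With the median difference set to 0, 20 families were called higher and 20 lower, so that the split of rises and falls depends on the scale. Without Col-0 replicate 2 the families called lower in RPM numbered 7, and without dcl234 replicate 2 they numbered 6. With no filter on low values, miR166a-5p, miR166b-5p, miR165a-5p, miR166e-5p, miR8165 and miR840-3p were not called (adjusted p between 0.0514 and 0.0742).

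For that reason the families were also compared as shares of the miRNA total of their own library, which do not contain the siRNAs. On this scale 26 families (17.1%) rose and 19 (12.5%) fell, with a median log2 difference of 0.30. All 26 were among the 75 that rose in RPM, and the 13 families that fell in RPM were all among the 19. Without Col-0 replicate 1, dcl234 replicate 1 or dcl234 replicate 2 the rises in share numbered 15, 15 and 12. The other 6 that fell as shares were miR168b-3p, miR3440b-3p, miR396a-3p, miR447a.2-3p, miR5027 and miR846-5p. The 75 families that rose in RPM held 53.8% and 51.8% of the miRNA total in Col-0 buds and 71.3% and 72.4% in dcl234 buds, whereas the 13 that fell held 1.22% and 1.47% in Col-0 and 0.323% and 0.166% in dcl234 buds. The 123 families under the filter held at most 0.0533% of the total in any of the 4 bud libraries.

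**Figure D2:**
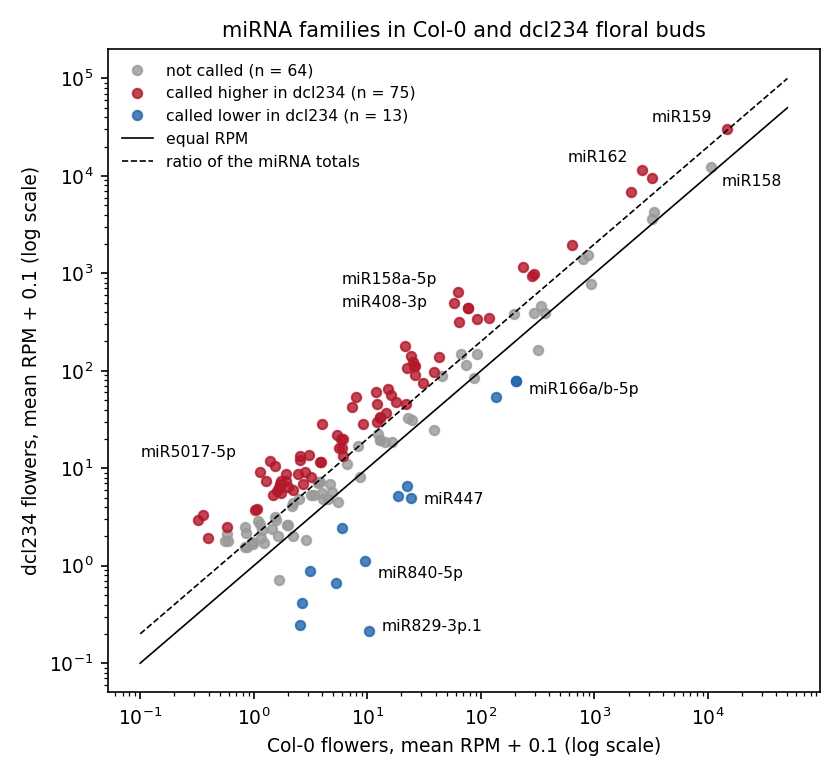
Mean RPM of the 152 tested miRNA families in Col-0 (x axis) and dcl234 (y axis) floral buds, both log scales after adding 0.1 RPM. The solid line marks equal RPM and the dashed line the 2.00-fold ratio of the miRNA totals; the 75 families called higher (red) lie along and above the dashed line and the 13 called lower (blue) lie below the solid line.

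The largest fall was that of miR829-3p.1, the 24-nt product of MIR829. It stood at 10.8 and 9.64 RPM in the Col-0 libraries and at 0 and 0.233 RPM in the dcl234 libraries. The fall was 3.34 ± 0.31 (SE) on the log2 scale (limma adjusted p = 0.00012). The row passed the filter only through its Col-0 values, so its direction is not an independent result. Only 2 reads were left in 1 dcl234 library against a rounded 276 in Col-0 buds. The Col-0 libraries held 143.6 and 132.6 reads, since reads were divided over the places they match. The ratio of the pooled reads was 95.9, with an exact 95% interval of 26.3 to 796. That interval takes the rounded values as whole reads and covers counting error only. The other products of the same hairpin did not follow miR829-3p.1. The opposite strand miR829-5p had 4.53 and 4.73 RPM in Col-0 and 7.08 and 6.64 RPM in dcl234 buds (log2 difference 0.48 ± 0.27, adjusted p = 0.132), with dcl234 above Col-0 in both libraries. The directly adjoining miR829-3p.2 was under the filter, with 0.378 and 0.218 RPM in Col-0 and 0.590 and 1.98 RPM in dcl234 buds. In leaves all 3 products stayed under 1 RPM. The study counted reads of 20 to 22 nt within 2 nt of a mature sequence, so a 24-nt product read in full would not meet its stated rule, and which reads make up this row cannot be seen in the table. The miR845 family, with which it shares bases, had 712 and 1043 RPM in Col-0 and 1416 and 1652 RPM in dcl234 buds, and was not called (adjusted p = 0.0851).

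Both strands of MIR840 fell, the only 1 of 54 distinct pairs of tested rows from the same hairpin in which both did. The 5p strand went from 8.68 and 10.4 RPM in Col-0 to 1.08 and 0.931 RPM in dcl234 buds, 9.48-fold lower (adjusted p = 0.000411), and the 3p strand from 2.94 and 2.18 to 0.394 and 0.233 RPM, 8.18-fold lower (adjusted p = 0.0079). The ratio of the 5p to the 3p strand was 3.72 in Col-0 and 3.21 in dcl234 buds. Without Col-0 replicate 1, dcl234 replicate 1 or dcl234 replicate 2 in turn, the 3p strand was no longer called (adjusted p between 0.05 and 0.0835).

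The miR447 family was at 13.8 and 34.6 RPM in Col-0 and at 3.77 and 6.05 RPM in dcl234 buds, and fell by 1.98 ± 0.42 on the log2 scale (adjusted p = 0.00244). A second product annotated on the same arm of the MIR447a hairpin, miR447a.2-3p, had 89.2 and 83.3 RPM in Col-0 and 78.2 and 90.6 RPM in dcl234 buds (adjusted p = 0.909), so that its level relative to the miR447 family went from 3.57 to 17.2. The miR447 family sums 3 loci and miR447a.2-3p comes from MIR447a alone, so this ratio is not that of a single hairpin.

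Families with high numbers were annotated late. Of the 5 tested families of the miR8000 series 3 fell, and of 16 of the miR5000 series 1 fell and 7 rose, beside 8.55% falls and 49.3% rises over all families. miR8173 had 2.11 and 2.84 RPM in Col-0 and 0.295 and 0 RPM in dcl234 buds, 3 reads in all against 67, a ratio of the pooled reads of 15.5 with an exact 95% interval of 5.09 to 77.1. miR8165 had 2.34 and 3.72 against 1.08 and 0.466 RPM, and lost its call without Col-0 replicate 2 or without dcl234 replicate 2 (adjusted p = 0.101 and 0.118). miR8167 had 17.9 and 26.6 against 6.98 and 6.13 RPM (adjusted p = 0.00115). The 23-nt miR5659 had 4.08 and 6.32 RPM in Col-0 and 0.885 and 0.233 RPM in dcl234 buds, 9.30-fold lower (adjusted p = 0.000991).

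**Figure D3:**
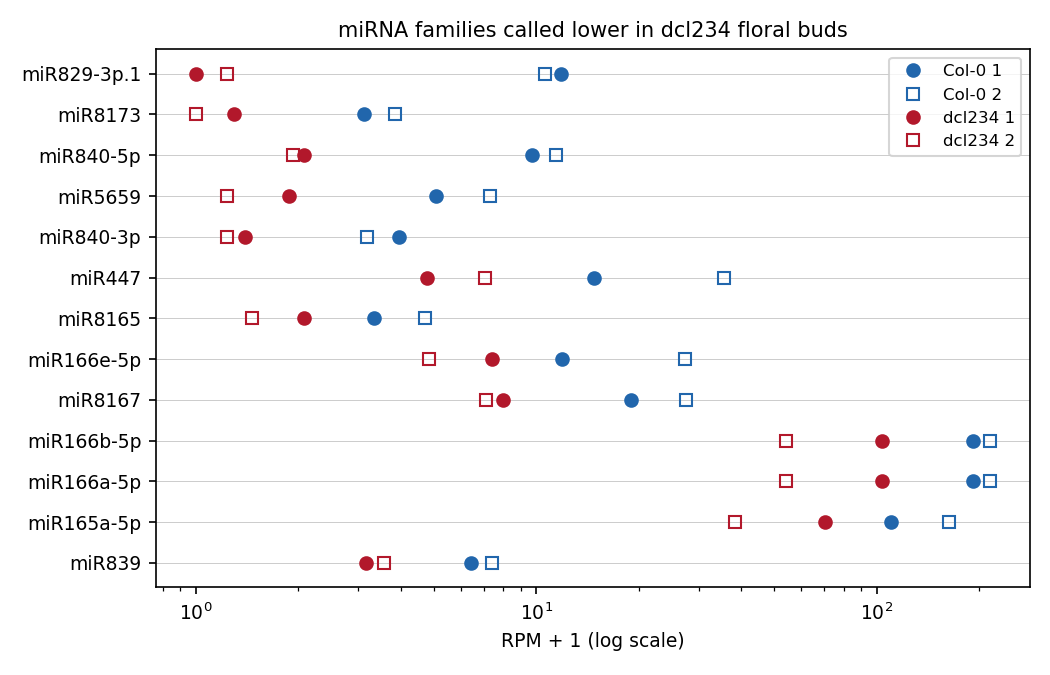
RPM + 1 (log scale) of the 13 miRNA families called lower in dcl234 floral buds, with 1 symbol per library (blue, Col-0; red, dcl234; filled circle, replicate 1; open square, replicate 2). No dcl234 value reaches a Col-0 value of the same family; miR829-3p.1 falls from 10.8 and 9.64 RPM to 0 and 0.233 RPM, and miR166a-5p and miR166b-5p carry the same values.

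The passenger strands of miR165 and miR166 fell while their guide strands rose. The miR165/166 guides, which target the class III HD-ZIP transcription factors of leaf and vascular patterning, had 2627 and 3826 RPM in Col-0 and 9882 and 9310 RPM in dcl234 buds, a log2 difference of 1.60 ± 0.29 (adjusted p = 0.00115). The shared sequence of miR166a-5p and miR166b-5p had 191 and 214 RPM in Col-0 and 103 and 52.9 RPM in dcl234 buds (log2 difference -1.44 ± 0.40, adjusted p = 0.00953), and miR165a-5p went from 109 and 162 to 69.4 and 37.3 RPM (adjusted p = 0.0101). miR166e-5p went from 10.9 and 26.3 to 6.43 and 3.84 RPM (adjusted p = 0.00874). Relative to these strands the guides stood 16.0, 23.8 and 174 times as high in Col-0 and 123, 180 and 1869 times as high in dcl234 buds, for miR166a-5p, miR165a-5p and miR166e-5p in this order. The guides are summed over 9 loci and the passengers are not, so the ratios are not those of single hairpins. Leaving out dcl234 replicate 2 ended all 4 calls of the passenger rows (adjusted p between 0.115 and 0.128), and so did leaving out Col-0 replicate 2 (between 0.0849 and 0.11). Without Col-0 replicate 1, miR166a-5p and miR166b-5p also lost theirs (adjusted p = 0.0647).

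Such opposite calls were rare. Of 54 distinct pairs of tested rows annotated on the same hairpin, both rose in 20 and both fell in 1. In 4 pairs, at MIR165a, MIR166a, MIR166b and MIR166e, 1 rose while the other fell. All 4 contain the same miR165/166 row, summed over 9 loci, and miR166a-5p and miR166b-5p are 1 measurement, so these are not 4 independent cases. Other pairs also set a family sum against a single strand. In 21 pairs 1 of the 2 rows was called and in 8 neither was. At MIR396a, 1 of those 8, miR396a-3p, the passenger of a miRNA family that restrains growth-regulating factors, had 270 and 370 RPM in Col-0 and 156 and 172 RPM in dcl234 buds and fell only as a share (log2 difference -1.94 ± 0.37, adjusted p = 0.00392).

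Of the 2 tested miRNAs known to be made by DCL4 1 fell, beside 8.55% of all families, and its call was not stable. miR839 had 5.44 and 6.40 RPM in Col-0 and 2.16 and 2.56 RPM in dcl234 buds, 2.50-fold lower (log2 difference -1.04 ± 0.29, adjusted p = 0.0101), so that 0.399 of its level remained. It was not called with a pseudocount of 0.1 RPM (adjusted p = 0.176) or without Col-0 replicate 2, dcl234 replicate 1 or dcl234 replicate 2 (adjusted p = 0.0715, 0.0732 and 0.0538). miR869.2 had 6.27 and 6.76 RPM in Col-0 and 11.2 and 10.9 RPM in dcl234 buds, not called (adjusted p = 0.101) and close to the 2.00-fold ratio of the totals. The other 3 products on this list were under the filter in buds. miR822, the DCL4 product that gave 22.9 and 29.3 RPM in leaves, had 0.906 and 1.53 RPM in Col-0 buds and 0.197 and 0.466 RPM in dcl234 buds. Its opposite strand miR822-3p had 0.680 and 0.291 RPM against 0 and 0.116 RPM, and miR869.1 had 0.302 and 0.145 against 0.492 and 0.233 RPM. The values of miR822 and miR822-3p thus lay below those of Col-0 in both dcl234 libraries, at levels too low to test.

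The largest rises came from a mixed group of strands. The greatest ratio was that of miR171c-5p, at 0.302 and 0.145 RPM in Col-0 and 2.66 and 3.03 RPM in dcl234 buds, 12.7-fold higher, followed by miR862-5p, at 0.302 and 0.218 against 4.03 and 2.44 RPM, 12.5-fold higher. Both rest on few reads in Col-0 and passed the filter only through their dcl234 values, so that their mean could only be higher there. On the tested log2(RPM + 1) scale they differed by 1.65 and 1.73, beside a largest rise of 3.30 over all families. The most abundant of the 12 largest rises was miR158a-5p, with 55.7 and 70.9 RPM in Col-0 and 527 and 751 RPM in dcl234 buds, 10.09-fold higher (log2 difference 3.30 ± 0.34, adjusted p = 0.00012). Its guide strand, the miR158 family, had 9311 and 11959 RPM in Col-0 and 12205 and 12247 RPM in dcl234 buds, 1.15-fold higher and not called (adjusted p = 0.528). The guide thus stood 168 times as high as the passenger in Col-0 and 19.1 times as high in dcl234 buds. The MIR158a precursor was listed at 0 TPM in both Col-0 libraries and at 15.73 and 10.14 TPM in the dcl234 libraries, and rose (limma adjusted p = 9.62e-06). It passed the filter only through its dcl234 values, so its direction is not an independent result.

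Further rises included 2 families tied to nutrient supply. miR399, which is induced when phosphate is scarce and targets PHO2, had 14.0 and 28.5 RPM in Col-0 and 202 and 157 RPM in dcl234 buds, 8.44-fold higher (adjusted p = 0.000177). miR408-3p, a miRNA induced when copper is scarce, had 36.0 and 79.7 against 332 and 661 RPM, 8.58-fold higher (adjusted p = 0.000323), while its opposite strand miR408-5p had 222 and 459 against 375 and 543 RPM and was not called (adjusted p = 0.264). In Col-0 the 5p strand stood 5.88 times as high as the 3p strand, and in dcl234 buds 0.925 times. Of the 7 tested families that copper supply is known to govern, 4 rose in RPM and 3 as shares, with medians of 1.48 and 0.76 on the log2 scale, beside 49.3% and 17.1% rises and medians of 1.00 and 0.30 over all families. They were miR397, miR408-3p and the rows miR398b-5p and miR398c-5p, which carried the same values, from 61.8 and 92.1 RPM in Col-0 to 315 and 559 RPM in dcl234 buds. These 2 rows are thus 1 measurement, counted 2 times in the 4, the 3, the 7 and the medians, and the counts are not read as an excess. miR397 was not called as a share (adjusted p = 0.101) or, in RPM, without dcl234 replicate 2 (0.0539).

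The remaining 7 of the 12 largest rises were rarer strands, of which miR472-3p passed the filter only through its dcl234 values. miR5017-5p went from 0.982 and 1.60 RPM to 9.84 and 13.6 RPM, 9.09-fold higher. miR833 was 8.61-fold, miR860 7.38-fold, miR391-3p 7.28-fold, miR867 6.95-fold and miR1887 6.20-fold higher, each at least 2-fold higher as a share as well. miR472-3p was 6.22-fold higher, with 0.227 and 0.364 RPM in Col-0 and 2.85 and 0.815 RPM in dcl234 buds, and was called only narrowly (adjusted p = 0.0317), with no call as a share (adjusted p = 0.173) or without Col-0 replicate 1, Col-0 replicate 2 or dcl234 replicate 1 (adjusted p = 0.161, 0.11 and 0.282).

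A chosen list of miRNAs held to be conserved between plant species was counted against the others, with no test of the difference. Of 59 tested conserved rows 35 (59.3%) rose and 4 fell, with a median log2 difference of 1.34, and the 4 that fell were the passenger rows of miR165 and miR166. Of 93 other rows 40 (43.0%) rose and 9 fell, with a median of 0.86, beside 1.00 over all 152. As shares of the miRNA total, 13 of the conserved rows rose and 6 fell, and 13 of the others rose and 13 fell.

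The miRNAs miR161, miR173 and miR390 start the production of secondary siRNAs. All 7 tested products of their hairpins, passenger strands included, were called higher in RPM, with a median log2 difference of 1.61, beside 49.3% rises and a median of 1.00 over all families. As a share of the miRNA total 1 of them, miR390, rose. Without Col-0 replicate 1, miR173-5p, miR173-3p and miR390-3p were not called, and without dcl234 replicate 2 neither were miR173-3p and miR390-3p. miR173-3p also lost its call without dcl234 replicate 1, and miR390-3p with no filter on low values. miR390, which guides AGO7 to the TAS3 transcripts, had 21.6 and 26.4 RPM in Col-0 and 149 and 132 RPM in dcl234 buds, 5.86-fold higher. miR173-5p, which cuts the TAS1 and TAS2 transcripts, had 9.59 and 16.0 against 36.2 and 28.9 RPM, 2.54-fold higher, and miR161.1, which targets PPR genes, had 2077 and 2143 against 7182 and 6487 RPM. miR828, the trigger of TAS4, gave 0.0755 RPM in Col-0 replicate 1 and was absent from the other 3 bud libraries.

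Of the 8 tested strands of miRNAs that target genes of the silencing machinery 4 rose, with a median log2 difference of 0.91, beside 49.3% and 1.00 over all families. miR162, which targets DCL1, had 2264 and 3033 RPM in Col-0 and 10522 and 12470 RPM in dcl234 buds, 4.34-fold higher (log2 difference 2.13 ± 0.31, adjusted p = 0.000411), and rose as a share too (log2 difference 1.13 ± 0.31, adjusted p = 0.0198). miR168, which targets AGO1, went from 290 and 294 to 944 and 1038 RPM, and miR403, which targets AGO2, from 256 and 307 to 970 and 926 RPM, each called higher in RPM but not as a share (adjusted p = 0.0728 and 0.0621). Of the 5 other strands of these hairpins, miR403-5p rose 2.43-fold, and miR162a-5p, miR162b-5p, miR168a-3p and miR168b-3p were not called, with values from 0.634 to 1.5 times those of Col-0. miR168b-3p fell as a share (log2 difference -1.65 ± 0.33, adjusted p = 0.00445).

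The most abundant families were largely the same in both genotypes. The 10 highest families of each genotype shared 9 members and made up between 87.3% and 89.3% of the miRNA total in every bud library. miR159, which targets GAMYB-like factors of the anther, led with 33.7% and 27.9% of the total in Col-0 and 31.0% and 33.0% in dcl234 buds. It was 2.08-fold higher in RPM (adjusted p = 0.00594) and had a share difference of 0.06 ± 0.27 on the log2 scale. It lost its call in RPM without Col-0 replicate 2 or dcl234 replicate 2, where its log2 difference was 0.96 and 0.97.

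Below it the shares moved apart. miR158 held 19.9% and 24.4% of the total in Col-0 and 13.2% and 12.4% in dcl234 buds, miR319, which targets TCP factors of leaf and petal growth, 7.45% and 6.43% against 4.52% and 4.48%, and miR396 7.98% and 5.63% against 3.86% and 3.77%. None of these 3 lower shares passed the test (adjusted p = 0.0609, 0.0975 and 0.0522), although the groups did not overlap. miR162 moved from rank 6 to rank 3, from 4.85% and 6.20% to 11.4% and 12.6%, and was the only one of the 10 highest families in Col-0 buds whose share was called different. miR165/166 held 5.63% and 7.82% against 10.7% and 9.41%, and miR161.1 4.45% and 4.38% against 7.79% and 6.56%, neither called (adjusted p = 0.133 and 0.0706).

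The 2 products of MIR780 stood in opposite order in the 2 genotypes. miR780.2 had 1046 and 803 RPM in Col-0 and 740 and 804 RPM in dcl234 buds (adjusted p = 0.611), whereas miR780.1 had 674 and 602 against 1841 and 2040 RPM and rose (log2 difference 1.60 ± 0.54, adjusted p = 0.0246). The call of miR780.1 was lost without any 1 of the 4 bud libraries (adjusted p between 0.116 and 0.151), with a pseudocount of 0.1 RPM (0.0765) and with no filter (0.143). The level of miR780.2 relative to miR780.1 went from 1.45 to 0.398. miR845 and miR156/157 closed the Col-0 list with 1.83% and 1.65% of the total, and held 1.60% and 1.47% in dcl234 buds.

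**Figure D4:**
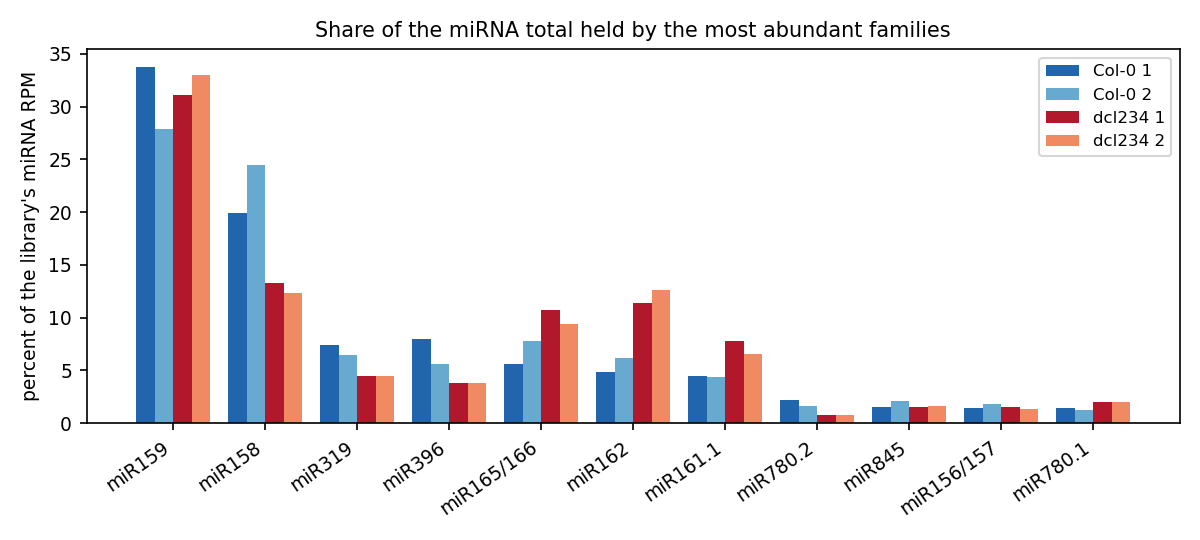
Percent of a library's summed miRNA RPM held by the 11 families that were among the 10 highest in Col-0 or in dcl234 floral buds, with 1 bar per library. miR159 holds between 27.9% and 33.7% in every library, miR158 drops from 19.9% and 24.4% to 13.2% and 12.4%, and miR162 goes from 4.85% and 6.20% to 11.4% and 12.6%.

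Families that leaves hardly express were counted apart, with no test of the difference. Under 1 RPM in both Col-0 leaf libraries were 127 of the 275 families, and 27 of them passed the filter in buds, of which 7 (25.9%) rose and 3 (11.1%) fell, with a median log2 difference of 0.69. Of the 125 tested families with at least 1 RPM in a leaf library, 68 (54.4%) rose and 10 (8.0%) fell, with a median of 1.17. The 3 that fell were miR829-3p.1, miR8173 and miR839. The 7 that rose were miR5017-5p, miR862-5p, miR862-3p, miR1887, miR156f-3p, miR833a-3p and miR5028. Of these, miR862-3p was not called without Col-0 replicate 1 or dcl234 replicate 1 (adjusted p = 0.0677 and 0.0687), miR833a-3p without dcl234 replicate 2 (0.0538), and miR5028 without Col-0 replicate 2 (log2 difference 0.96) or dcl234 replicate 2 (adjusted p = 0.0533). miR156f-3p, a passenger strand of the family that times the change to the adult phase, had 0 RPM in both leaf libraries, 2.11 and 2.84 RPM in Col-0 buds and 8.46 and 15.6 RPM in dcl234 buds (adjusted p = 0.000947). Among those not called, miR851-3p was the most abundant, with 12.3 and 20.5 RPM in Col-0 and 17.4 and 19.7 RPM in dcl234 buds.

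Complete loss of a miRNA was rare and concerned small counts. Of the 275 families, 7 had reads in both Col-0 libraries and none in either dcl234 library, and 16 showed the reverse. Among the 7, only miR8121, annotated as a 24-nt miRNA, had at least 3 reads in each Col-0 library, with 0.453 and 2.18 RPM, and was at least 4.09-fold lower in dcl234 buds when 3 reads per library are taken as the limit that a count of 0 allows. That bound rests on Col-0 replicate 2, with 30 reads, and from the 6 reads of Col-0 replicate 1 alone it is 1.41-fold. The other 6 (miR5652, miR5629, miR5015, miR5644, miR5029 and miR400) averaged at most 0.337 RPM in Col-0, so that their absence was within or near what that limit allows. Of the 16 families listed only in dcl234 buds, miR4239 had 0.787 and 0.466 RPM, miR169b-3p 0.394 and 0.466 RPM and miR835-5p 0.492 and 0.349 RPM, which put them at least 2.82-fold, 1.93-fold and 1.89-fold higher, and the other 13 had fewer than 3 reads in at least 1 dcl234 library.

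The calls were also counted by the annotated length of the mature miRNA, beside 49.3% rises and 8.55% falls over all families. Among families with 1 annotated length, 7 of 8 of 20 nt rose, and 57 of 112 of 21 nt rose while 8 fell. Of 21 families of 22 nt, 6 rose and 3 fell, and of 6 families over 22 nt, 2 rose and 2 fell. The median log2 difference was 1.38, 1.05, 0.54 and 0.50 in this order. By first base, 41 of 81 families beginning with U rose and 3 fell, 18 of 32 with A rose and 5 fell, and 5 of 19 with G rose and 4 fell, the last 4 being the passenger rows of miR165 and miR166. These features were counted and not tested.

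The tasiRNAs were nearly all lower. Of 117 listed tasiRNAs, 66 averaged 1 RPM or more across the bud libraries. In dcl234 buds 62 of them (93.9%) fell, with a median log2 difference of -2.54 over the 66, and 40 were under 1 RPM in both dcl234 libraries. These 40 passed the filter only through their Col-0 values. Their mean could therefore only be lower in dcl234 buds, and their direction is not an independent result. In all 66 (100%) the 2 groups did not overlap, with dcl234 below Col-0 in 65. limma called 0 of the 66 higher, and 1 was higher at an unadjusted p under 0.05. TAS1C, whose siRNAs target a group of PPR genes, supplied most tasiRNA reads in Col-0 buds. Its 17 siRNAs summed to 6019 and 7882 RPM in Col-0 and to 77.6 and 65.7 RPM in dcl234 buds, 97.1-fold lower. TAS1A summed to 746 and 959 against 12.4 and 13.9 RPM, TAS2 to 1059 and 1091 against 12.6 and 16.4 RPM, and TAS1B to 57.1 and 64.5 against 1.08 and 1.75 RPM, 64.8-, 74.1- and 43.0-fold lower. At these 4 genes, all of which are cut by miR173, every one of the 43 tested siRNAs fell, with rows that passed only through Col-0 among them. TAS1A-3'D6[-] and TAS1C-3'D3[-] carried the same values in every library. They are thus 1 measurement, counted 2 times in the 43, the 62 and the 66.

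The most abundant tasiRNA, TAS1C-3'D2[+], had 5215 and 7144 RPM in Col-0 and 60.7 and 47.5 RPM in dcl234 buds, 114-fold lower (log2 difference -6.80 ± 0.32, limma adjusted p = 7.6e-15). It alone held 66.3% of the tasiRNA total in Col-0 and 34.4% in dcl234 buds. The next 5 (TAS2-3'D3[+], TAS1A-3'D8[+], TAS1A-3'D5[+], TAS1C-3'D9[-] and TAS1C-3'D4[-]) were between 58.1- and 125-fold lower.

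The TAS3 siRNAs, which depend on miR390 and include the tasiR-ARF species that target auxin response factors, retained more. TAS3A summed to 144 and 172 RPM in Col-0 and to 40.0 and 38.9 RPM in dcl234 buds, 4.01-fold lower, TAS3B to 45.0 and 52.2 against 5.14 and 4.42 RPM, 10.2-fold lower, and TAS3C to 29.9 and 22.3 against 4.07 and 3.20 RPM, 7.18-fold lower. The row named tasiR-ARF fell from 57.6 and 70.8 to 4.67 and 4.02 RPM, 14.8-fold lower. TAS3A thus went from 1.76% and 1.67% of the tasiRNA total in Col-0 to 24.8% and 25.6% in dcl234 buds. Whether the falls at the TAS3 genes and at the TAS1 and TAS2 genes differ was not tested.

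The 4 tasiRNAs that were not called lower all came from TAS3 genes. TAS3A-5'D1[-] had 10.6 and 13.4 RPM in Col-0 and 24.7 and 19.9 RPM in dcl234 buds, above Col-0 in both libraries (log2 difference 0.84 ± 0.25, adjusted p = 0.00312) but short of the 2-fold line. It made up 0.130% of the tasiRNA total in Col-0 and 14.2% in dcl234 buds, and was thereby most of what remained of TAS3A. The other 3, TAS3A-5'D1[+], TAS3A-5'D2[+] and TAS3C-5'D1[+], were at 0.367, 0.540 and 0.508 times their Col-0 level. Their log2 differences were -0.75, -0.50 and -0.65 (limma adjusted p = 0.00963, 0.0853 and 0.0182), short of the 2-fold line on the log2(RPM + 1) scale. TAS4 gave no reads in Col-0 buds, and 0.233 RPM in 1 dcl234 library.

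Of the 117 tasiRNAs, 19 had reads in both Col-0 libraries and none in either dcl234 library. Of these, 10 had at least 3 reads in each Col-0 library, led by TAS1A-3'D7[-] with 1.74 and 1.60 RPM, at least 5.18-fold lower, and TAS3A-5'D9[+] with 1.81 and 1.24 RPM, at least 4.73-fold lower.

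The transcripts from which the tasiRNAs are cut rose in mRNA-Seq. TAS1C had 10.2 and 16.1 TPM in Col-0 and 82.7 and 85.8 TPM in dcl234 buds (log2 difference 2.62 ± 0.36, limma adjusted p = 0.000855), TAS3 8.08 and 14.8 against 67.9 and 73.3 TPM, TAS3b 0.66 and 3.55 against 24.98 and 21.96 TPM, TAS2 14.5 and 14.8 against 47.7 and 54.2 TPM, TAS1A 2.02 and 4.61 against 13.7 and 14.2 TPM, and TAS1B 5.05 and 6.18 against 15.4 and 15.9 TPM. These 6 were 2.79- to 11.1-fold higher and passed the test, with the largest adjusted p, 0.0358, at TAS1B. The remaining TAS3 gene, named TASIR-ARF in RefSeq (AT5G57735), had 8.87 and 15.0 against 21.04 and 22.51 TPM and was not called (adjusted p = 0.181). The TAS genes were thus higher as transcripts and lower as siRNAs in the same buds.

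**Figure D5:**
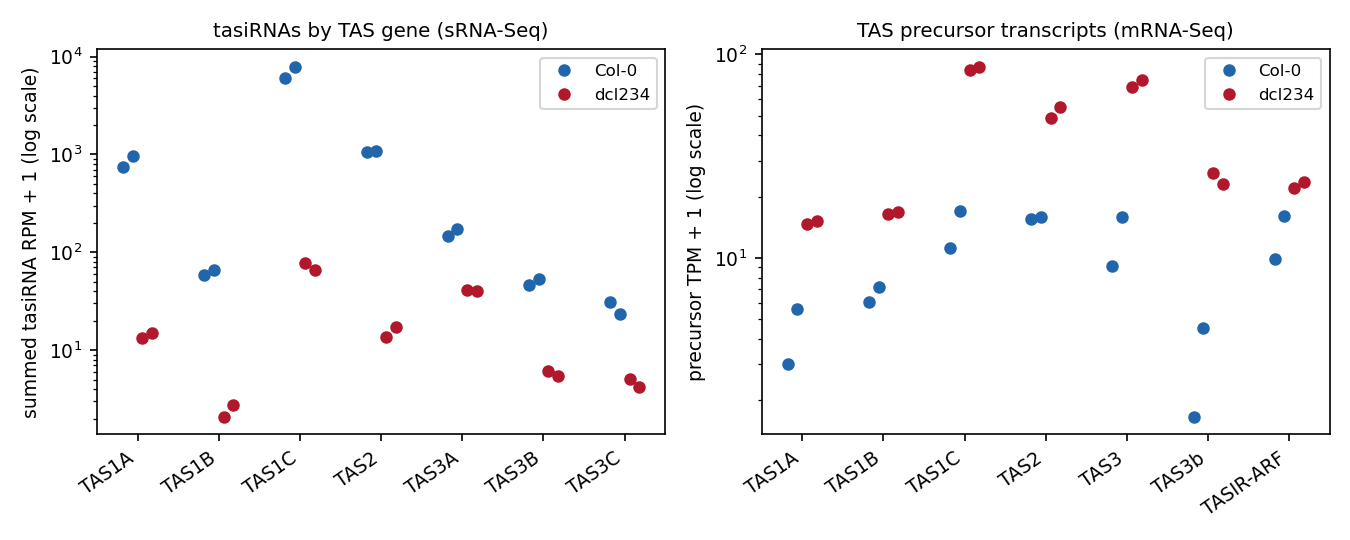
Summed tasiRNA RPM + 1 by TAS gene (left) and TPM + 1 of the TAS transcripts (right) in floral buds, both log scales, with 1 point per library (blue, Col-0; red, dcl234). At every gene shown the siRNA sums of dcl234 lie below and the transcripts above those of Col-0; the TAS1C siRNAs go from 6019 and 7882 RPM to 77.6 and 65.7 RPM, and its transcript from 10.2 and 16.1 TPM to 82.7 and 85.8 TPM.

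The miRNA precursors were mostly too low in mRNA-Seq to compare. Of 114 precursor genes of families called higher or lower, 60 were listed at 0 TPM in all 4 bud libraries and 33 passed the filter, of which 7 rose and 1 fell. Over all 19913 genes tested, 1.63% rose and 0.678% fell. Of the 114 genes, 99 were precursors of families called higher, as were 29 of the 33 tested. Besides MIR158a, the 7 were MIR159b, MIR162a, MIR398b, MIR403, MIR775 and MIR780, precursors of families with at least 1 product that rose. The choice of genes largely set this match in advance. MIR158a, MIR398b, MIR403, MIR775 and MIR780 were also listed at 0 TPM in both Col-0 bud libraries. Their mean could therefore only be higher in dcl234 buds. MIR162a went from 0 and 2.65 TPM to 8.02 and 5.54 TPM (adjusted p = 0.035). The other precursor of miR162, MIR162b, had 0 and 5.07 TPM in Col-0 and 0 TPM in both dcl234 libraries, and was not called (limma adjusted p = 0.208). MIR5642b went the other way, from 48.7 and 35.2 TPM to a listing of 0 in both dcl234 libraries (adjusted p = 4.36e-07), while miR5642 rose from 15.3 and 10.6 to 28.7 and 38.8 RPM. MIR5642b passed the filter only through its Col-0 values, so its mean could only be lower in dcl234 buds. Of the precursors of families that fell, 6 were tested and limma called 0, with 2 higher and 1 lower at an unadjusted p under 0.05. The precursor of miR839 had 3.25 and 8.19 TPM in Col-0 and 6.25 and 2.97 TPM in dcl234 buds, and the groups overlapped.

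The 2 siRNA tables differed in how much was lost. Of 35092 transposons listed, 16150 in the siR_21 table averaged 1 RPM or more across the bud libraries, and 15965 of these (98.9%) fell while 26 (0.161%) rose. The median transposon kept 0.0813 of its Col-0 level, with quartiles of 0.0552 and 0.111. Of the 16150, 8056 reached 1 RPM in each of the 4 bud libraries. Rows that averaged under 1 RPM in dcl234 buds passed the filter only through their Col-0 values. Their mean could only be lower in dcl234 buds, and they are part of the 98.9%, the median and the quartiles. Of 13012 transposons tested in the siR_24 table, 1702 (13.1%) fell and 244 (1.88%) rose, with a median ratio of 0.736 and quartiles of 0.545 and 0.957. These counts moved with the scaling and the filter. Leaving out Col-0 replicate 1, Col-0 replicate 2 or dcl234 replicate 2 lowered the 26 rises in the siR_21 table to 9 each time, and leaving out Col-0 replicate 1 or dcl234 replicate 2 lowered the 244 rises in the siR_24 table to 124 and 147. For the 12949 transposons tested in both, the median ratio of the siR_21 to the siR_24 value was 3.57 and 3.64 in the Col-0 libraries and 0.40 and 0.43 in the dcl234 libraries. The files are named for 21-nt and 24-nt siRNAs, but hold no read lengths. The DCL3 product is the longer class, and the table with the shorter name lost more, so that which size class each table holds could not be settled and each is called by its file's name.

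The falls in the siR_21 table were spread over the genome. Its sums were 11.1- to 12.4-fold lower on each of the 5 chromosomes, and in the siR_24 table they were 1.25- to 1.32-fold lower. The transposon with the highest level in Col-0 was AT3TE69475 in the siR_21 table, and it was an exception, with 3040 and 2904 RPM in Col-0 and 2163 and 2288 RPM in dcl234 buds, 1.34-fold lower and not called at 2-fold. The next 2, AT5TE41070 and AT5TE42710, went from 1537 and 1830 and from 1530 and 1829 RPM to 119 and 99.8 and to 119 and 99.6 RPM. Their values lie so close that the same reads may be counted at both. The same 3 transposons led in the siR_24 table, where AT5TE41070 and AT5TE42710 stood 1.16- and 1.15-fold lower and AT3TE69475 1.24-fold higher, none called.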

How the data were processed

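Total RNA of unopened floral buds and leaves was size-selected to 18 to 75 nt for single-end sRNA-Seq, and mRNA-Seq was paired-end. The authors aligned adapter-trimmed small RNA reads to TAIR10 with Bowtie, allowing no mismatch and up to 100 places, divided each miRNA and tasiRNA read over its places and deposited RPM values, scaled to all reads that match the genome or a spike-in. Reads of 20 to 22 nt on the sense strand within 2 nt of an annotated mature miRNA were summed per family, while the transposon values are whole reads. mRNA-Seq values are TPM (transcripts per 1000000), made by the authors with RSEM on Araport11 and deposited per gene. Bowtie and RSEM versions are not given in the sources used here. The sRNA spike-in reads were not used here, so no value is an absolute amount.

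A family absent from a library was set to 0. limma 3.58.1 in R 4.3.3 was fitted to log2(RPM + 1) of the 6 sRNA-Seq libraries with 1 mean per group, and the difference dcl234 minus Col-0 buds was tested for features with a mean of 1 RPM or more over the 4 bud libraries. A call needed a Benjamini-Hochberg adjusted p under 0.05 over all features tested and at least 2-fold, on a scale that understates changes of low features. All adjusted p-values come from limma. Shares were fitted the same way after scaling each library to 1 miRNA total. A mean-variance trend was used for transposons and for log2(TPM + 1) of genes. Whole reads were recovered from the transposon RPM (99.97% to 100% of values within 0.01 read, against 64.3% to 75% of miRNA values), and edgeR 4.0.16 was run on them as an alternative. The scripts were tested on simulated data. Counting intervals and limits cover counting error only, since the reads carry no molecular identifiers.

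Named were all miRNA families called lower, the 12 largest rises without overlap of the groups, the 10 most abundant families in Col-0 buds, the members of the lists, complete losses and gains with 3 or more reads per library, the 6 most abundant tasiRNAs and those not lower, and the 3 most abundant transposons. Other strands of the same hairpins, the families low in leaves and the transcripts of single precursors were picked after their values were seen. The members and lists were chosen with earlier results of these data known. A list of 4 doubtful annotations had 0 tested families. The tapetum gene A9 was not matched. Each group had 2 libraries, so precision is limited by their number. Sequences come from RefSeq TAIR10.1.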

Additional observations from a re-analysis of the deposited data

How the results depend on the processing

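With a minimum of 1 RPM in each of the 4 bud libraries, which 117 families met, or with no filter, 7 miRNA families were called lower. Setting the median difference to 0 gave 20 higher and 20 lower. Rises in share numbered 16 with a pseudocount of 0.1 RPM, 16 with no filter and 10 with the median at 0, and falls in share 12 with 1 RPM in each library. With 1 RPM in each library 16 of the 18 tasiRNAs that met it fell. With the median at 0, which takes the typical fall as no change, 15 tasiRNAs were higher and 22 lower. For siR_21, 9 transposons were higher with a pseudocount of 0.1 RPM, 9 with no filter and 6 with 1 RPM in each library, where 8025 of the 8056 tested were lower. The median at 0 gave 2590 higher and 1493 lower, and edgeR with TMM scaling, which also takes most features as unchanged, 297 and 1975. For siR_24, 149 transposons were higher with a pseudocount of 0.1 RPM, and 1008 of the 10682 tested were lower with 1 RPM in each library. The median at 0 gave 528 higher and 811 lower, and edgeR with TMM 733 and 1126. Relative to the miRNA total, the tasiRNA, siR_21 and siR_24 sums were 0.00849, 0.0423 and 0.392 of those in Col-0. Except where the construction of the alternative shows it, the cause was not tested.

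Leaving out each bud replicate in turn gave 58 to 72 miRNA families higher and 6 to 12 lower, 12 to 20 higher and 14 to 18 lower in share, 61 to 62 tasiRNAs lower, 9 to 26 siR_21 transposons higher and 124 to 230 siR_24 transposons higher. With the replicate block, 76 miRNA families were higher and 13 lower, 25 and 19 in share, 62 tasiRNAs were lower, and 26 and 15965 siR_21 and 245 and 1704 siR_24 transposons were higher and lower. The correlation of same-numbered deviations was 0.05 for miRNAs, 0.14 for tasiRNAs, 0.00287 for siR_21 and -0.07 for siR_24, so the numbers were not taken as pairs.

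Of 713 values of 73 named families under 10 alternatives, 613 kept their direction and call, 71 lost the call, 10 gained it and 19 reversed. With the median at 0 the log2 difference was -0.79 for miR158, -0.62 for miR319, -0.82 for miR396, -0.18 for miR845, -0.17 for miR156/157, -0.32 for miR869.2, -0.46 for miR162a-5p, -0.46 for miR162b-5p, -0.59 for miR168a-3p, -0.51 for miR408-5p, -0.69 for miR857, -0.52 for miR829-5p, 1.79 for TAS3A-5'D1[+], 2.05 for TAS3A-5'D2[+] and 1.90 for TAS3C-5'D1[+]. Without each bud replicate in turn it ranged from -0.033 to 0.40 for miR396 (lowest without Col-0 replicate 2), from -0.026 to 1.02 for miR408-5p (lowest without Col-0 replicate 1) and from -0.14 to 0.071 for miR447a.2-3p (above 0 without Col-0 replicate 1, at 0.016, or dcl234 replicate 1).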

Other observations

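The predicted hairpins of the miRNA precursors, folded with RNAfold 2.7.2, had close medians in families that rose and fell. The median share of paired bases was 74.0% over the 75 families that rose, 74.3% over the 13 that fell and 74.9% over the 64 not called. The median folding energy per base was -0.404, -0.413 and -0.406 kcal/mol, and the median precursor length 126, 143 and 145 bases. The most stable hairpin per base among the 13 that fell was at -0.691 kcal/mol. These values are descriptions, with no test.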
